A study of Mus musculus with 8 samples.

Results

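Myelin is the fatty sheath that glial cells wrap around axons. Schwann cells make it in peripheral nerves and oligodendrocytes in the central nervous system, and the sheaths share some proteins and differ in others. The retina of the mouse holds no myelin, whereas the choroid carries peripheral nerve fibers with their Schwann cells, and oligodendrocyte myelin begins in the optic nerve behind the eye. Genes of myelin and its cells were followed here in the retinal pigment epithelium (RPE)/choroid: the Schwann cell and peripheral sheath genes Pmp22 and Prx, the genes of both sheaths Mbp, Mag, Cnp and Mal, the central myelin gene Mog, and Sox10, a transcription factor of both glial lineages. All probe sets assigned to 1 of these genes alone were taken. Of the 8 genes, 7 had such a probe set, 19 probe sets in all, out of 18193 genes and 45037 probe sets that are not controls. Prx was not analysed here.

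RPE/choroid RNA of male C57BL/6 animals aged 26 months (old, 4 arrays) or 4 months (young, 4 arrays) was measured on Affymetrix mouse arrays. Each array carried a pool of 4 RPE/choroids, taken from 2 animals, and counts as 1 replicate. The labels name no treatment or gene change in either group. Values are linear intensities that the authors had normalized, with array medians of 129 to 135. The tissue is a mixture, and fewer cells of a type cannot be told apart from less RNA per cell.

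Of the 7 genes, Mbp and Sox10 fell in the RPE/choroid from old animals by their probe set with the highest mean level, and 0 rose. The test was limma on log2 intensities with Benjamini-Hochberg adjustment over all probe sets and a threshold of 0.05. By the same rule 21.3% of all genes changed, with 9.56% lower and 11.8% higher. At an unadjusted p under 0.05, 3 of the 7 genes were lower, with Mag as the third, and 0 were higher, beside 18.9% lower and 18.5% higher among all genes. Among the 19 probe sets, 4 fell and 1 rose, beside 8.75% lower and 9.22% higher among all probe sets, 18.0% together. The probe set that rose and 3 of those that fell belong to Mbp. The values of the ages did not overlap for 5 probe sets that were lower and 1 that was higher, where 12.0% and 12.3% of all probe sets did so, 24.3% in all. Mbp holds 4 of these lower probe sets and the 1 higher, so they are not separate genes. The median log2 fold change was -0.13 over the 19 probe sets and -0.02 over all probe sets. None of the 19 passed the fold over 2 with an adjusted p under 0.01 that the study used, which 0.844% of all probe sets did. Their log2 fold changes ran from -0.45 to 0.36.

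**Figure D1:**
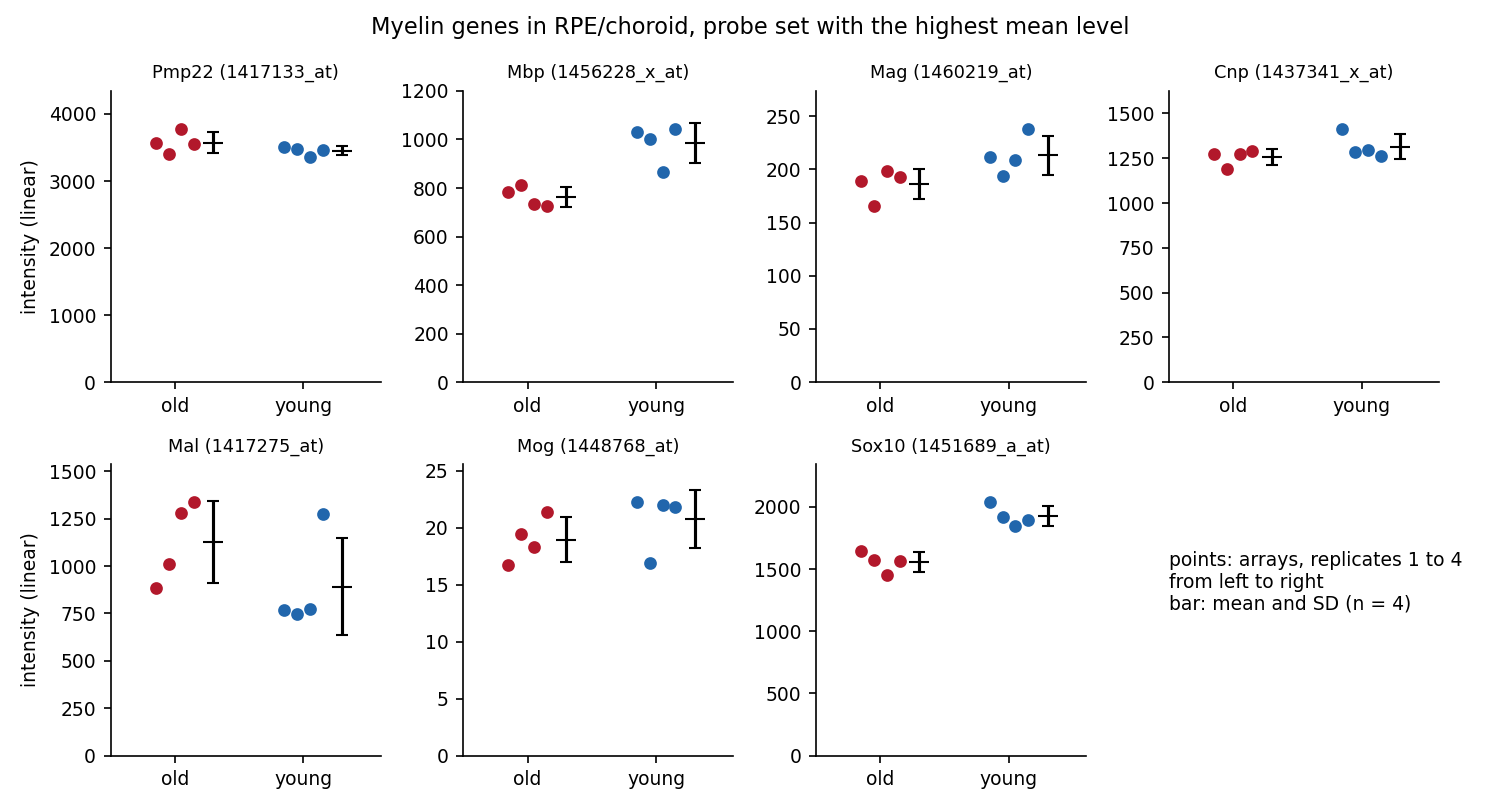
Intensity on a linear scale (vertical axis) of the probe set with the highest mean level of each of 7 myelin genes, in 4 old and 4 young arrays of RPE/choroid, with the mean and SD as a bar. The ages separate for Mbp (728 to 812 in old, 867 to 1045 in young) and Sox10 (1451 to 1648 in old, 1846 to 2039 in young), and overlap for the others.

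Sox10 turns on the myelin genes of Schwann cells and oligodendrocytes, and is also needed by melanocytes, the pigment cells of the choroid. Its probe set of highest level (1451689_a_at) had intensities of 1648, 1571, 1451 and 1564 in the old arrays, against 2039, 1917, 1846 and 1895 in the young arrays. Every old array lay below every young array. The log2 fold change was -0.30 (standard error 0.06, adjusted p = 0.00876 from limma), a fold of 0.810 of old over young. The other probe sets of Sox10 were also lower on average but did not pass. For 1424985_a_at the log2 fold change was -0.09 (adjusted p = 0.367), and for 1425369_a_at it was -0.19 (adjusted p = 0.158). Their values overlapped between the ages, from 421 to 469.6 in old against 431 to 512 in young arrays for 1424985_a_at, and from 155 to 182 in old against 174 to 218 in young arrays for 1425369_a_at. In 15 alternative settings, 1451689_a_at passed in 15 and the other probe sets of Sox10 in 0.

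Markers of melanocytes also fell in old arrays. Of 10 markers, 9 fell and 0 rose, and Mitf, their master regulator, did not pass (-0.17 on the log2 scale, adjusted p = 0.230). The largest of these falls were 0.58 for Kit, the receptor of stem cell factor, 0.49 for the melanosome transporter Slc45a2, 0.46 for the endothelin receptor Ednrb, 0.41 for tyrosinase, Tyr, and 0.35 for the melanosome matrix protein Pmel, each on the log2 scale. The summed intensity of the list was 51920 to 62364 in old and 67086 to 68209 in young arrays, and 0 of its markers reached an intensity of 0. Several of these genes are also made by the RPE, which shares the pigment program. Among the old arrays, replicate 3 was the lowest and replicate 1 the highest for both 1451689_a_at (1451 and 1648) and the marker list (means of -0.30 and 0.04 on the centred log2 scale). The other probe sets of Sox10 did not share this order, since replicate 3 was the highest old array for 1425369_a_at (182) and replicate 1 the lowest for 1424985_a_at (421). Among the young arrays, replicate 3 was the lowest for both 1451689_a_at (1846) and the marker list (0.14). The highest young array was replicate 1 for 1451689_a_at (2039) and replicate 2 for the marker list (0.19). By summed intensity the order of the young arrays differed, with replicate 1 the lowest (67086) and replicate 4 the highest (68209) for the list. Old replicate 1 was also the highest old array for the RPE, fibroblast and skeletal muscle lists below (centred means of -0.04, 0.17 and 0.40). The part of the pigment cells in the Sox10 value was not tested.

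**Figure D2:**
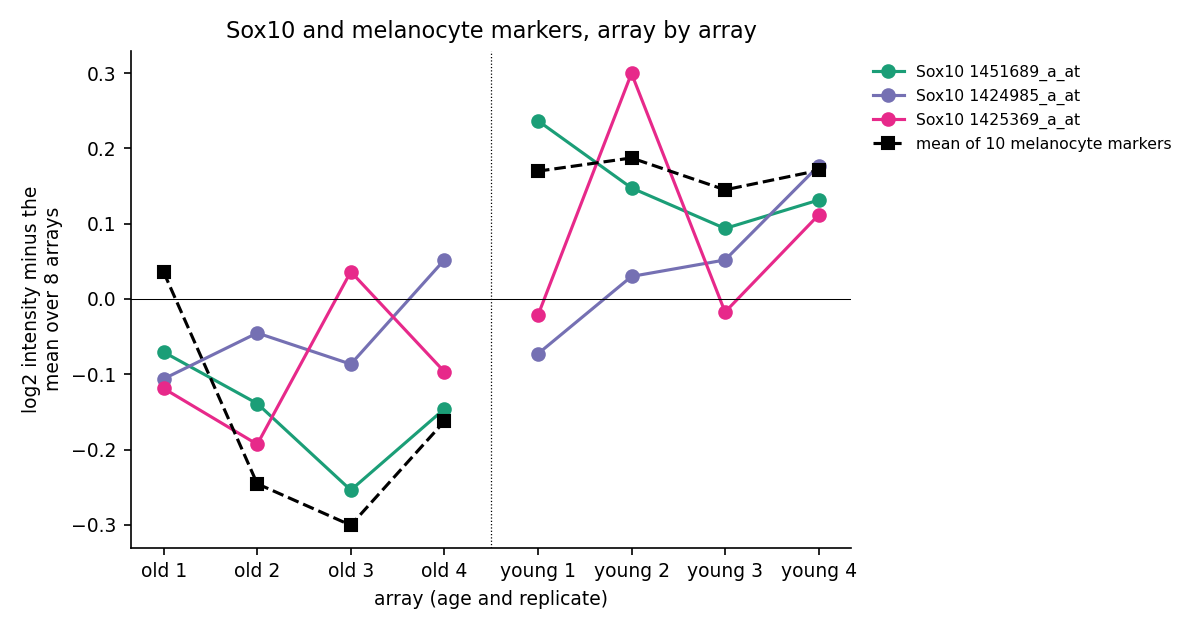
Log2 intensity of 3 Sox10 probe sets and the mean of 10 melanocyte markers (vertical axis, each minus its mean over the 8 arrays) in 4 old and 4 young arrays (horizontal axis). Lines only join values of the same probe set or list. The marker mean lies between -0.30 and 0.04 in old and between 0.14 and 0.19 in young arrays.

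Pmp22 encodes a membrane protein of compact peripheral myelin, whose gain or loss of a gene copy causes inherited neuropathies in humans, and fibroblasts and epithelia make it too. Its single probe set (1417133_at) stood at 3564, 3399, 3783 and 3546 in the old arrays, against 3513, 3475, 3363 and 3466 in the young arrays. Old replicates 1, 3 and 4 lay above every young array and old replicate 2 within the young range. The log2 fold change was 0.05 (standard error 0.05, adjusted p = 0.563 from limma). Across 15 alternative settings it ran from 0.02 to 0.08. Of 10 fibroblast markers, Pdgfra and Thy1 rose (0.40 and 0.29 on the log2 scale) and Fap fell by 0.45, with a summed intensity of 30098 to 35919 in old and 30216 to 32983 in young arrays, and 0 markers at 0. The paper places Thy1 among its leukocyte extravasation genes, with a larger fold change that it lists under another sequence than the probe set used here. Which cells made Thy1 was not tested. The part of fibroblasts in the Pmp22 value was not tested either.

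Mog encodes a glycoprotein on the outer face of central myelin that Schwann cells do not make. Its intensity (1448768_at) was 16.7, 19.5, 18.3 and 21.4 in the old arrays, against 22.2, 16.9, 21.9 and 21.8 in the young arrays. All 8 values lay below the first quartile of their array, which ran from 59.1 to 63.1. The ages overlapped, and the log2 fold change was -0.13 (standard error 0.11, adjusted p = 0.444 from limma). At so low a signal a fall of Mog may not be detectable on these arrays, and no rise was seen.

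Because the central gene Mog lay at so low a signal, and Prx was not analysed here, the change of the peripheral sheath could not be set against that of the central sheath through these genes.

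Mbp encodes myelin basic protein, which holds the layers of the sheath together in peripheral and central myelin. The same gene also gives rise, from an upstream start, to Golli proteins, which lymphocytes and neurons make outside of myelin. Of its 8 probe sets, 3 fell, 1 rose and 4 did not pass, and 6 were lower on average. Which transcripts each probe set reads is not given in the sources used here. By the maker's suffixes, _a_at sets read several transcripts of a gene, _s_at sets can read transcripts of related genes, and _x_at sets hold probes that may bind other transcripts. The 3 probe sets that fell are all _x_at sets, the 1 that rose is an _s_at set, and the 4 that did not pass are _a_at sets.

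The Mbp probe set of highest level (1456228_x_at) had intensities of 785, 812, 733 and 728 in old arrays, against 1032, 1001, 867 and 1045 in young arrays. The ages did not overlap, and young replicate 3 lay closest to the old arrays. The log2 fold change was -0.37 (standard error 0.07, adjusted p = 0.0101 from limma), a fold of 0.776 of old over young. Probe sets 1436201_x_at and 1454651_x_at fell by 0.44 (adjusted p = 0.0232) and 0.45 (adjusted p = 0.0333). Both were without overlap, at 334 to 358 in old against 406 to 586 in young arrays for 1436201_x_at and at 286 to 330.4 in old against 352 to 550.2 in young arrays for 1454651_x_at.

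Probe sets 1433532_a_at, 1419646_a_at and 1451961_a_at had log2 fold changes of -0.36, -0.35 and -0.21 and did not pass (adjusted p = 0.109, 0.111 and 0.0764 from limma). The ages did not overlap for 1451961_a_at, at 304 to 331 in old against 346 to 416 in young arrays, and overlapped for the other probe sets of these 3. For 1433532_a_at the old arrays were at 748, 681, 760.1 and 778, against 1284, 879.6, 757 and 947 in the young arrays. Young replicate 1 was the highest array and young replicate 3 lay among the old ones. Young replicate 1 was also the highest for 1419646_a_at (722), 1436201_x_at (586), 1454651_x_at (550.2) and 1451961_a_at (416). Without young replicate 1, the log2 fold changes of 1433532_a_at and 1419646_a_at were -0.21 and -0.22. In the same fit 1456228_x_at, 1436201_x_at and 1454651_x_at kept an adjusted p of 0.0319, 0.0194 and 0.0375. Without young replicate 3, 1419646_a_at passed (log2 fold change -0.48, adjusted p = 0.0286). Over 15 alternative settings, 1456228_x_at passed in 15, 1436201_x_at in 12 and 1454651_x_at in 9. Leaving out old replicate 2, 3 or 4 ended the call of 1436201_x_at and of 1454651_x_at, which also lost it without young replicate 2 or 4 and with array weights, at adjusted p values of up to 0.0613 and 0.0836.

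**Figure D3:**
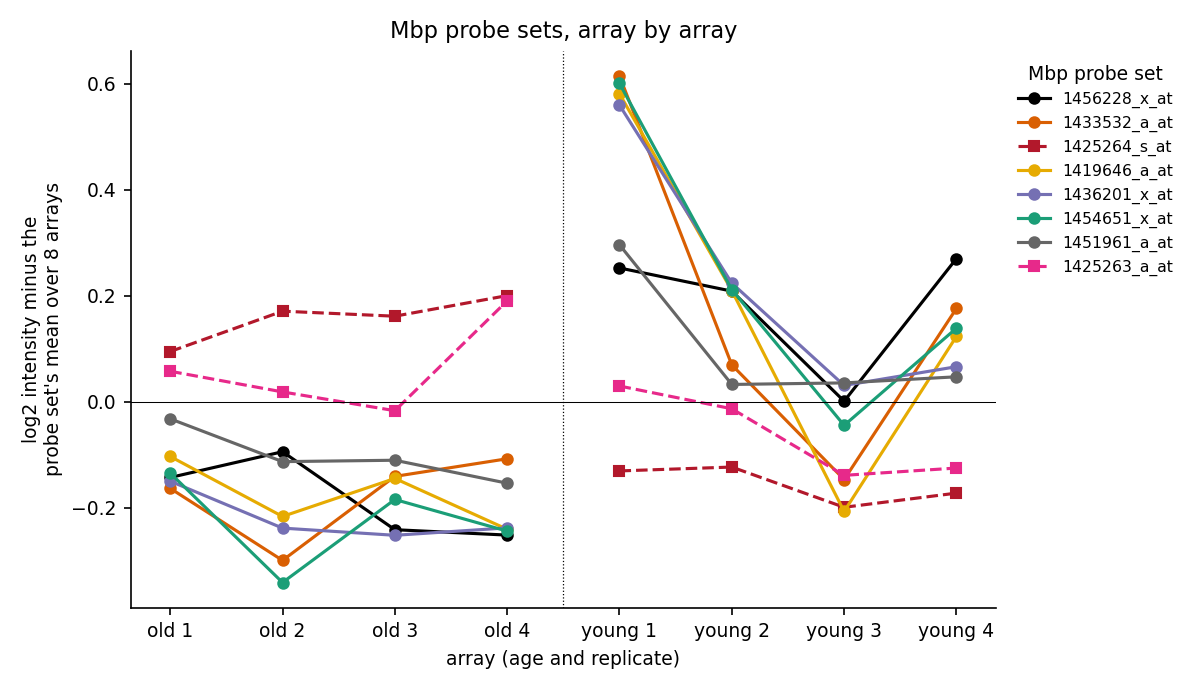
Log2 intensity of the 8 Mbp probe sets (vertical axis, each minus its mean over the 8 arrays) in 4 old and 4 young arrays (horizontal axis). Lines only join values of the same probe set. Circles mark the 6 probe sets that were lower on average in old arrays and squares the 2 that were higher, with 1425264_s_at above its mean in every old array and below it in every young array.

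Probe set 1425264_s_at of Mbp went the other way. It had 864, 910.4, 904 and 929 in old arrays, against 739, 742, 704 and 717 in young arrays. The 4 old values all exceeded the 4 young ones, and the arrays of an age lay close together. The log2 fold change was 0.31 (standard error 0.05, adjusted p = 0.00351 from limma), a fold of 1.24 of old over young, and it passed in 15 of 15 alternative settings. Probe set 1425263_a_at, at 211 to 244 in old against 194 to 218 in young arrays, had a log2 fold change of 0.12 and did not pass (adjusted p = 0.226).

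The disagreement was tested on the array by array difference between the probe set of highest level of a gene and each other probe set of it. For 1456228_x_at minus 1425264_s_at of Mbp the changes with age differed by -0.68 on the log2 scale, and for 1456228_x_at minus 1425263_a_at by -0.49. Both had the smallest p that 70 splits allow, 0.0286 by the exact two-sided permutation test, and 0.171 after adjustment over the 12 pairs within Mbp, Cnp, Mal and Sox10. Of the 12 pairs, 0 passed after this adjustment and 2 had an unadjusted p under 0.05. With 12 pairs a p of 0.0286 passes only when most pairs reach it, so this count of 0 cannot decide whether single pairs differ. In a limma fit over all 16752 such pairs of all genes, which was added after the data had been seen, both differences passed (adjusted p = 0.00119 with a standard error of 0.08, and adjusted p = 0.00894 with a standard error of 0.09), where 14.3% of all pairs did. They also passed in 8 of 8 fits that left out an array. The other 10 pairs did not pass, with adjusted p values from 0.127 to 0.969.

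After the mean of each age was subtracted, 1433532_a_at, 1419646_a_at, 1436201_x_at, 1454651_x_at and 1451961_a_at varied together over the 8 arrays, with Pearson correlations from 0.82 to 0.97. The correlations of 1456228_x_at with these were lower, at 0.41 to 0.67, those of 1425263_a_at were 0.34 to 0.62, and those of 1425264_s_at ran from -0.01 to 0.39. The correlation of 1425263_a_at with 1425264_s_at was 0.62. The probe sets share the arrays, so these values describe them and were not tested.

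The genes most like Mbp (1456228_x_at) over the 8 arrays were sought among 12213 genes above the median level. They were Ccdc173, a protein of cilia, with a Pearson correlation of 0.99, the mitotic kinesin Kif18b with 0.97, the B cell transcription factor Pax5 with 0.97, the centrosome protein Sdccag8 with 0.96, and Mia, a secreted protein of cartilage and melanoma cells, with 0.96. After the age means were subtracted the correlations were 0.94, 0.97, 0.84, 0.84 and 0.79 in the same order. All 5 were picked as the highest of many, and these values were not tested.

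Marker lists of axons and of T cells were read beside Mbp. Of 10 axon and peripheral neuron markers, Kif5a fell by 1.85 on the log2 scale, 0 rose and 9 did not pass. The summed intensity was 1620 to 1977 in old replicates 1, 2 and 3, 3861 in old replicate 4, and 3882 to 4290 in young arrays. Old replicate 4 was also the highest old array for the summed rod markers, given below. Kif5a itself was lower in every old array, old replicate 4 included (608, against 1118 to 1691 in young arrays). For Mbp, old replicate 4 was the lowest old array by 1456228_x_at (728) and the highest by 1433532_a_at (778). Of 10 T cell markers, Il7r, Cd3d, Cd3g, Cd8b1 and Lat rose, by 2.59, 1.12, 1.10, 1.07 and 0.30 on the log2 scale, and 0 fell. On average 7 of the 10 were higher and 3 lower in old arrays. The summed intensity was 2797 to 3726 in old and 1744 to 1954 in young arrays. Most of that difference came from Il7r, with a mean of 1444 in old and 239 in young arrays. No marker of either list was at 0, and the part of these cells in the Mbp values was not tested.

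Mag encodes a cell adhesion protein of the innermost myelin layer, next to the axon. Its intensity (1460219_at) was 189, 166, 199 and 192 in old arrays, against 212, 194, 209 and 238 in young arrays. Young replicate 2 lay among the old arrays. The log2 fold change was -0.19 (standard error 0.08), which did not pass (adjusted p = 0.130 from limma) and was the third lowest of the 7 genes.

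Cnp encodes an enzyme of the cytoplasm of myelinating cells that keeps channels through the sheath open. Its probe set of highest level (1437341_x_at) was at 1275, 1189.7, 1273 and 1288 in old arrays, against 1416, 1285, 1296 and 1262 in young arrays. The ages overlapped and the log2 fold change was -0.06 (standard error 0.06, adjusted p = 0.473 from limma). The other probe sets were at 307 to 336 in old against 307 to 339.7 in young arrays (1449296_a_at, log2 fold change -0.02) and at 208 to 237 in old against 197 to 215 in young arrays (1418980_a_at, log2 fold change 0.10). Neither passed (adjusted p = 0.833 and 0.258), and the 3 probe sets did not share a sign.

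Mal encodes a membrane protein that sorts lipids and proteins to the sheath, and T cells and epithelia use it as well. Its probe set of highest level (1417275_at) gave 884, 1010.2, 1282 and 1337 in old arrays, against 769.9, 748, 772 and 1275 in young arrays. Old replicates 3 and 4 and young replicate 4 were high and the other 5 arrays lower, so that the ages overlapped. The log2 fold change was 0.36 (standard error 0.19, adjusted p = 0.228 from limma). Without young replicate 4 it was 0.54 and passed (adjusted p = 0.0397). Probe set 1432558_a_at had the same 3 arrays high, with 539.6 and 620.4 in old replicates 3 and 4 and 534 in young replicate 4, and a log2 fold change of 0.25 (adjusted p = 0.241). Both probe sets of Mal ranked these 3 arrays alike.

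**Figure D4:**
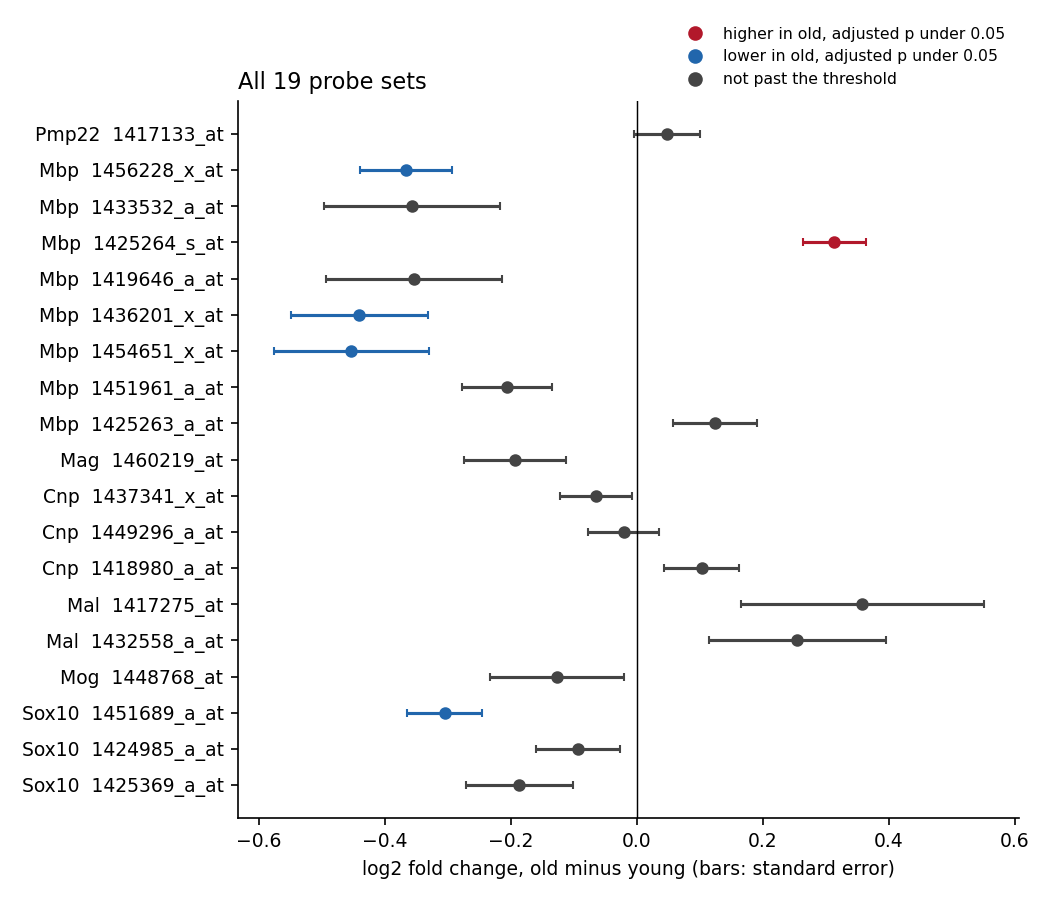
Log2 fold change of old minus young (horizontal axis) with its standard error for the 19 probe sets of 7 myelin genes (vertical axis), from 4 old and 4 young arrays. Blue points (4) are lower and the red point (1) is higher in old arrays at an adjusted p under 0.05, and both colors occur among the probe sets of Mbp.

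Other genes of Schwann cells and peripheral myelin moved in both directions. Of 16 listed genes 14 were measured, 1 rose, 2 fell and 11 did not pass, with a median log2 fold change of -0.02, the same as over all genes. Scn7a, a relative of the sodium channels that Schwann cells make, rose to an intensity of 728 ± 62.5 in old arrays, against 475 ± 31.1 in young arrays (SD, n = 4 each), which is 0.61 on the log2 scale (adjusted p = 0.00097). Ngfr, the p75 neurotrophin receptor of non-myelinating and immature Schwann cells, fell by 0.38 (adjusted p = 0.00465), and Gfra3, a receptor subunit for artemin on Schwann cells and sensory neurons, by 0.22 (adjusted p = 0.0238). Of the 14 genes 1 was lower without old replicate 2, 3 or 4 or young replicate 1 or 4, and 2 were higher without old replicate 4. Egr2, the transcription factor that drives peripheral myelination, ran from 202 to 276 in old and from 113 to 359 in young arrays and did not pass (0.36 on the log2 scale, adjusted p = 0.455).

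Of 19 genes of oligodendrocytes and central myelin 18 were measured, and 3 fell, 0 rose and 15 did not pass, with a median log2 fold change of -0.14. By the same rule 9.56% of all genes fell and 11.8% rose. At an unadjusted p under 0.05, 6 of the 18 were lower and 0 higher, beside the 18.9% and 18.5% of all genes. Myrf, the transcription factor of oligodendrocyte myelination, which the RPE also makes, fell to 1899 ± 101 in old arrays, against 2687 ± 181 in young arrays (SD, n = 4 each), which is -0.50 on the log2 scale (adjusted p = 0.0014). Gpr37, a receptor of myelinating oligodendrocytes, fell by 0.47 (adjusted p = 0.00579) and Omg, a glycoprotein of oligodendrocytes and neurons, by 0.35 (adjusted p = 0.0282). Of the 18 genes 2 were lower without old replicate 3 or young replicate 1 or 2, and 4 without old replicate 1 or 2. Olig1 and Olig2, which define the oligodendrocyte lineage, were at 31.7 to 44.8 in old and 31.7 to 53.8 in young arrays, below the first quartile of their arrays, and did not pass (log2 fold changes of -0.09 and -0.08).

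Of 16 genes of both sheaths or of their junction with the axon 15 were measured. Of these, 2 rose, 2 fell and 11 did not pass, with a median log2 fold change of -0.06. Cd9, a tetraspanin of Schwann cells and many other cells, rose to 3859 ± 66.8 in old arrays, against 2437 ± 166 in young arrays (SD, n = 4 each), which is 0.67 on the log2 scale (adjusted p = 0.000157). Erbb3, the neuregulin receptor of Schwann cells, rose by 0.40 (adjusted p = 0.0268). Gpm6b, a membrane protein of neurons and glia, fell by 0.25 (adjusted p = 0.0204), and Cntnap1, which joins the axon to the sheath beside the node, by 0.34 (adjusted p = 0.0441). Neither fall passed without old replicate 2, old replicate 3, young replicate 1 or young replicate 3, where 0 of the 15 genes were lower, and 1 was lower without old replicate 1 or 4 or young replicate 4. Of the 15 genes 1 was higher without old replicate 2 or 3 or young replicate 1, 2 or 3.

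**Figure D5:**
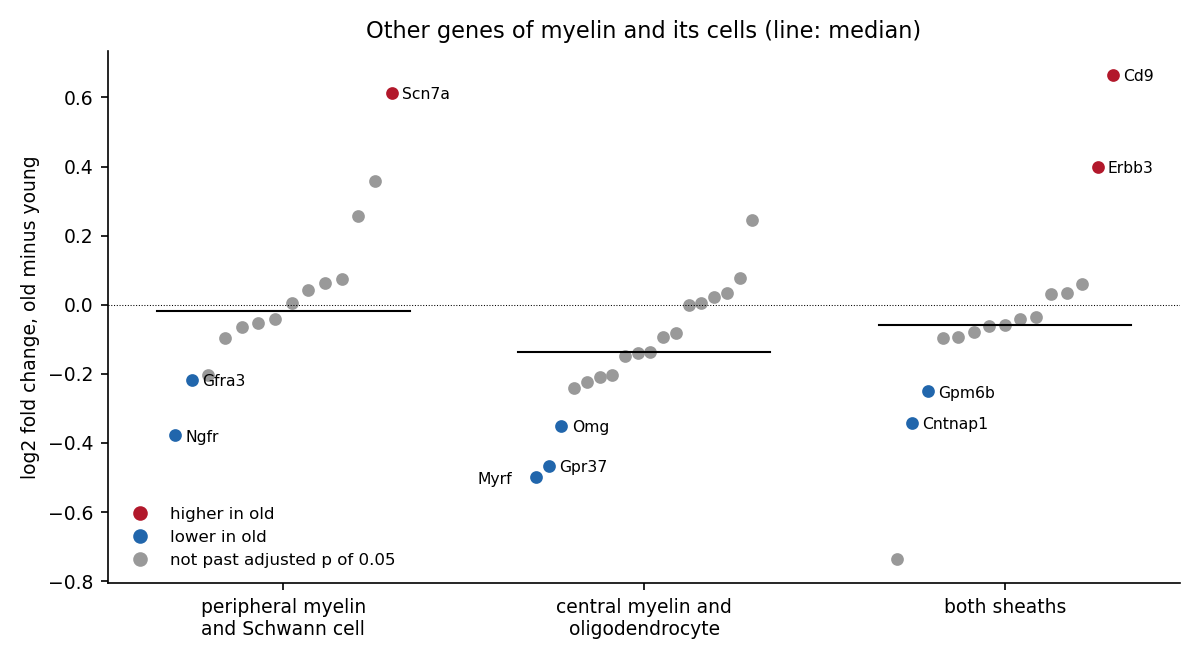
Log2 fold change of old minus young (vertical axis) for 14 peripheral, 18 central and 15 shared genes of myelin and its cells, 1 point a gene, with the median as a line. Named points passed an adjusted p of 0.05. Of the named points in the central group 3 fell and 0 rose, while the other groups hold named points on both sides. Counting all points, 12 of the 18 central genes were lower and 6 higher.

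Markers of other cells of the dissection were counted in the same way. Of 10 RPE markers Otx2, Rlbp1, Slc16a8, Lrat and Rdh5 fell, with log2 fold changes of -0.33 to -0.20, and 0 rose, with a summed intensity of 77450 to 81056 in old and 85510 to 89334.5 in young arrays. Of 10 Mueller glia and astrocyte markers Fabp7, Slc1a3 and Gfap fell, with log2 fold changes of -1.62, -1.41 and -0.98, and 0 rose. The list did not move as a whole, since 6 were lower on average and 4 higher. At an unadjusted p under 0.05 by limma, 4 were lower and 2 higher. Its summed intensity overlapped, at 37139 to 38127 in old and 38078.5 to 38222 in young arrays. Of 10 skeletal muscle markers Myot rose, at 84.0 to 124 in old and 40.0 to 56.1 in young arrays, and 0 fell. The 4 young values of Myot lay below the first quartile of their array. On average 7 of the 10 muscle markers were lower and 3 higher. Their summed intensity overlapped, at 1096 to 2138 in old and 1196 to 2305 in young arrays. Of 9 rod markers 0 passed an adjusted p under 0.05 by limma, with 1 lower at an unadjusted p under 0.05. The smallest p values were those of Rcvrn and Pde6a, at -0.96 and -0.85 on the log2 scale. The summed intensity of the rod markers was 9571 to 14742 in old replicates 1, 2 and 3 and 24326 in old replicate 4. In the young arrays it was 22105 to 24686 in replicates 1, 2 and 3 and 12334 in replicate 4. None of these markers was at 0, and their part in the values of the myelin genes was not tested.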

How the data were processed

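Labeled cRNA made from 8 RPE/choroid samples was hybridized to Affymetrix arrays, 1 array a sample. The deposited values are linear intensities that the authors normalized by a step the table does not name, and their methods give RMA, invariant set normalization and BRB-ArrayTools as routes. A floor of 1, which 8 to 14 values per array lay under, was applied before taking log2. Old arrays were compared with young arrays in limma 3.58.1 under R 4.3.3, through lmFit and eBayes without covariates, over 45037 probe sets, with 64 controls left out and Benjamini-Hochberg adjustment. Of these, 34945 name 1 gene, 932 several and 9160 none in the platform annotation, and those naming 1 gene were used for genes. Where a gene had several, the one of highest average log2 intensity stood for it. The lists hold peripheral, central and shared myelin genes and markers of melanocytes, RPE, axons, muscle, fibroblasts, Mueller glia, rods and T cells. Of each list every gene that passed is named where 5 or fewer did, otherwise the 5 of largest change, and where none passed the 2 of smallest p, as are the 5 genes most correlated with Mbp. Mitf, Egr2, Olig1 and Olig2 were named after their values had been seen. The members, lists and tests were chosen with earlier results of these data known. The fit was tested on simulated data. Alternatives were a higher floor, quantile normalization, a level filter, centring on array medians, trended and robust eBayes, weighted arrays, the replicate block, other rules for choosing probe sets, a stricter threshold, and leaving out each array. Pooled pairs of animals are the replicates, and their number limits the precision.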

Additional observations from a re-analysis of the deposited data

Results flagged for a closer look

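The lowest or highest array of an age stood far from the others of that age for 5 of 38 combinations of probe set and age, by the ratio of its gap to the whole range on the log2 scale (Dixon's test at 95%). Chance gives about 1 in 20. Young replicate 4 was high for Mal (1417275_at), at 1275 against 748 to 772, ratio 0.941. Young replicate 1 was high for Mbp (1451961_a_at), at 416 against 346 to 350 (ratio 0.945). Young replicate 2 was low for Mog (1448768_at), at 16.9 against 21.8 to 22.2 (ratio 0.930). Old replicate 1 was high for Mbp (1436201_x_at), at 358 against 334 to 337 (ratio 0.863). Old replicate 2 was low for Cnp (1437341_x_at), at 1189.7 against 1273 to 1288 (ratio 0.855).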

How the results depend on the processing

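Of the 7 genes, 2 were lower under every alternative except an adjusted p under 0.01, which left 1. None was higher, except 1 when any probe set of a gene could count and 0 to 1 when an array was left out (1, Mal, without young replicate 4). Of the 19 probe sets 1 was higher in each setting, with 1 to 2 when an array was left out. The count lower was 1 at an adjusted p under 0.01 and 2 to 5 when an array was left out (2 without old replicate 2, 3 or 4). With median centring, the peripheral list had 2 genes higher and 1 lower and the shared list 1 lower. When an array was left out, 1 to 2 peripheral genes were higher and 1 to 3 lower, and 1 to 2 shared genes were higher and 0 to 2 lower. The central list then had 0 genes higher and 2 to 4 lower, and it had 4 lower with quantile normalization. Over all probe sets 4154 were higher and 3939 lower, against 4819 and 3023 with median centring, which moved the median by under 0.1. The change of Prx minus Mog was not run, and that of Pmp22 minus Mog is not given because of the low signal of Mog. The limma fit over all pairs called 2 differing pairs of probe sets, where the exact test called 0, since with 12 pairs a smallest p of 0.0286 passes only when most pairs reach it. The cause of the other changes was not tested. Replicate numbers are not said to pair samples, and same-numbered arrays correlated at 0.02 to 0.10 after age was removed. With the replicate number as a block, 2 genes and 4 probe sets were lower and 1 probe set higher, and these counts did not change. Mog, below the median level, has no value under the filter on low values.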
